A study of Mus musculus with 22 samples.

Results

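Sorted lung epithelial cells (ECs) of mice lacking the aryl hydrocarbon receptor (AhR-/-) were compared with those of mice lacking cytochrome P450 1B1 (CYP1B1-/-), both without allergen. The comparison takes the 3 steady-state libraries labelled AhR-/- (replicates 1, 3 and 4) and the 3 labelled CYP1B1-/- (replicates 2, 3 and 4), which are 6 of the 22 libraries of the series, over all 21793 protein-coding genes among the 54373 genes listed. The mice of both strains carry their deletion in all cells and were backcrossed to C57BL/6, by the study's methods with matching for age and sex, and ECs were sorted as live CD45-CD31-EpCAM+ cells. Further libraries serve as reference here. They are 4 C57BL/6 wildtype (WT) steady-state libraries of the same table and 12 libraries from mice instilled with house dust mite extract (HDM). The 12 hold 4 libraries labelled AhR-/-, 4 labelled CYP1B1-/- and 4 labelled WT. The reference libraries after HDM were not alike in Y-linked reads: 4 Y-linked genes summed to 138 and 143 CPM in replicates 3 and 4 of the libraries labelled AhR-/- and to no more than 0.227 CPM in the other 10 HDM libraries, while all 10 steady-state libraries held 94.3 to 341 CPM. Reads of Y-linked genes thus differed between the labelled genotypes after HDM and between the tables. Several values after HDM are also given from the 10 libraries under 1 CPM, a choice made after the data were seen. Of the libraries labelled AhR-/-, these 10 keep only replicates 1 and 2, so fewer libraries and Y-linked reads cannot be told apart there. The HDM libraries also varied in Gm10800, which took 0.0082% to 71.9% of their counts. The labels do not say that replicates come from separate mice, so p-values measure the spread between these samples.

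AhR is a ligand-activated transcription factor that waits in the cytoplasm bound to chaperones. On binding a ligand it enters the nucleus, pairs with ARNT and binds DNA at a core of GCGTG, from where it induces the CYP1 enzymes and its own repressor Ahrr. The CYP1 enzymes, Cyp1b1 among them, oxidise and thereby clear many AhR ligands, so that receptor and enzyme form a feedback loop. A comparison of the 2 knockouts asks how the EC transcriptome differs when the receptor is missing from when an enzyme that clears its ligands is missing.

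Total counts ranged from 11185853 to 15654352 in these 6 libraries, and 3 counts corresponded to 0.200 to 0.301 CPM (counts scaled to library size, TMM-normalised). The library labelled CYP1B1-/- replicate 2 stood apart. Mitochondrially encoded genes took 0.0907% of its counts, against 1.21% to 1.43% in the other 5 libraries, and a single predicted gene, Gm10800, took 29.2% against 9.54% to 18.3%. Its mean Pearson correlation of log2 CPM with the other libraries of its group was 0.920, against 0.952 to 0.981 for the other 5. Several values below are therefore also given without this library. Sorting markers and alveolar type 1 genes were present in every library: the 13 alveolar type 1 markers summed to 50176 to 57729 CPM in the libraries labelled AhR-/- and to 40060 to 56053 CPM in those labelled CYP1B1-/-. Ptprc, which encodes CD45, was at 2.87 to 11 CPM and Pecam1, which encodes CD31, at 0.667 to 3.11 CPM.

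The 2 targeted genes did not read as losses. Ahr (chromosome 12, 35497974 to 35535038, mm10) was at 24.7, 21.9 and 27.4 CPM in the libraries labelled AhR-/-, and at 17.0, 12.3 and 12.4 CPM in those labelled CYP1B1-/-. The libraries labelled AhR-/- thus held more Ahr reads than each library labelled CYP1B1-/-, with a log2 fold change of 0.83 (SE 0.23, n = 3 and 3, adjusted p = 0.936, edgeR quasi-likelihood test). Cyp1b1 (chromosome 17, 79701537 to 79715061) was at 2.42, 1.54 and 0.503 CPM in the libraries labelled AhR-/- and at 5.12, 7.60 and 8.05 CPM in those labelled CYP1B1-/-, a log2 fold change of -2.22 (SE 0.53, adjusted p = 0.936, edgeR). Each targeted gene was highest in the libraries labelled with its own knockout. WT was at 9.69 to 16.6 CPM for Ahr and at 0.843 to 2.81 CPM for Cyp1b1. Counts were summed over whole genes, so a transcript that lacks part of its exons is counted too, and the counts do not check these labels. After HDM, in other libraries, the log2 fold changes were 0.82 (SE 0.29) for Ahr and -2.57 (SE 0.51) for Cyp1b1.

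**Figure D1:**
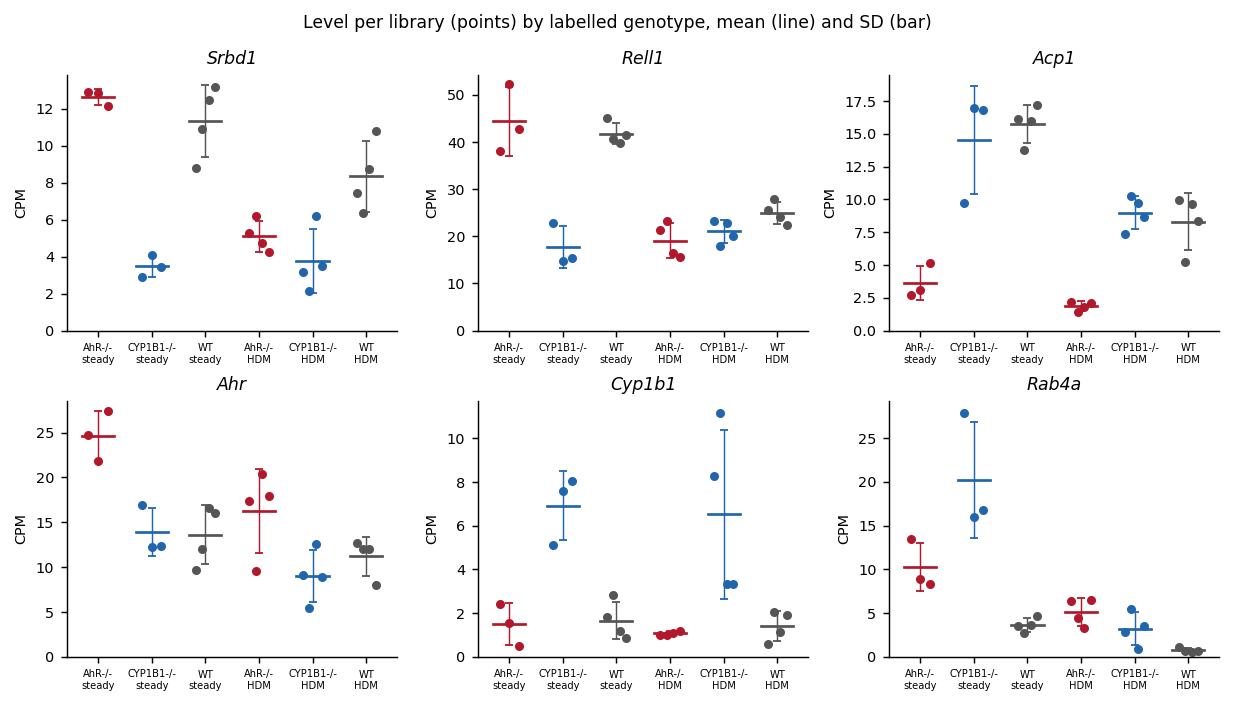
CPM of 6 genes (y axes, linear from 0) in each library (points) of the labelled genotypes at steady state and after HDM (x axis), with the mean (line) and SD (bar). At steady state Srbd1 and Rell1 sit lower in the libraries labelled CYP1B1-/- than in the other genotypes, Acp1 sits lower in those labelled AhR-/-, and Cyp1b1 is highest in those labelled CYP1B1-/-.

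Of the 17 genes of the AhR machinery and target battery, 11 passed the filter on low counts. Ahr and Cyp1b1 were the only 2 of these with an unadjusted p under 0.05 (18.2%, against 4.23% over all genes tested), and the median log2 fold change was 0.02, against 0.04 over all genes tested. Cyp1a1, Cyp1a2 and Ahrr, the classical targets, were at 0 to 1.31 CPM in the 6 libraries and did not pass the filter. Arnt, the partner of AhR, was at a mean of 85.0 CPM in the libraries labelled AhR-/- and 84.0 CPM in those labelled CYP1B1-/- (log2 fold change 0.02, SE 0.18). Tiparp, which encodes an ADP-ribosyltransferase that represses AhR, was at means of 247 and 396 CPM (log2 fold change -0.68, SE 0.39). The quinone reductase Nqo1 was at 5.72 and 3.66 CPM (log2 fold change 0.63, SE 0.31). Neither gene had an unadjusted p under 0.05. The count became 3 of 11 when replicate 2 of the libraries labelled CYP1B1-/- was left out, the third being the aldehyde dehydrogenase gene Aldh3a1, at -0.71 with all libraries and -1.01 (SE 0.45) without it.

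Of 15547 genes tested, 1 passed an adjusted p of 0.05 (0.00643% of those tested, edgeR quasi-likelihood test with Benjamini-Hochberg adjustment). At an unadjusted p under 0.05 there were 657 genes, or 4.23%, of which 323 were higher (2.08%) and 334 lower (2.15%) in the libraries labelled AhR-/-. In 1871 genes, or 12.0%, the 3 libraries of one label all lay above the 3 of the other, with those labelled AhR-/- above in 1098 (7.06%) and below in 773 (4.97%). Other tests fitted to the same counts passed more genes, 9 with the likelihood ratio test of edgeR (0.0579%), 14 with DESeq2 (0.102% of the genes it gave an adjusted p) and 9 with limma's voom and sample weights (0.0579%). Without replicate 2 of the libraries labelled CYP1B1-/-, 7 genes passed (0.0442%), namely Rell1, Acp1, Srbd1, Arntl, Cldn23, Glipr2 and Cry1.

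The gene that passed was Srbd1, which encodes a protein with an S1 RNA-binding domain. Srbd1 (ENSMUSG00000024135, chromosome 17, 85984665 to 86145175) was at 12.9, 12.8 and 12.2 CPM in the libraries labelled AhR-/- and at 2.91, 4.07 and 3.46 CPM in those labelled CYP1B1-/-. The groups did not overlap, and WT, at 8.78 to 13.2 CPM, lay near the libraries labelled AhR-/-. The log2 fold change was 1.85 (SE 0.22, n = 3 and 3, adjusted p = 0.0301, edgeR quasi-likelihood test). Over 23 alternatives the log2 fold change stayed between 1.74 and 1.99, but the call was lost in 10 of them, with adjusted p-values up to 0.407. Those 10 were the replicate block, the fit of only the knockout libraries, and the fits without AhR-/- replicate 1, 3 or 4, CYP1B1-/- replicate 3 or 4, or WT replicate 2, 3 or 4. Against WT, which both comparisons share, Srbd1 was at 0.16 (SE 0.19) in the libraries labelled AhR-/- and at -1.70 (SE 0.21) in those labelled CYP1B1-/- on the log2 scale. After HDM the log2 fold change between the knockouts was 0.41 (SE 0.31, unadjusted p = 0.210), with 4.24 to 6.20 CPM against 2.14 to 6.20 CPM.

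Acp1, which encodes a low molecular weight tyrosine phosphatase, came next in p. It was at 2.68, 3.09 and 5.12 CPM in the libraries labelled AhR-/- and at 9.74, 17.0 and 16.8 CPM in those labelled CYP1B1-/-, with WT at 13.8 to 17.2 CPM. The log2 fold change was -2.0 (SE 0.28, adjusted p = 0.0988, edgeR), and -2.22 (SE 0.23, adjusted p = 0.000950, edgeR) without replicate 2 of the libraries labelled CYP1B1-/-. After HDM, Acp1 was the 1 gene of 14161 tested that passed (0.00706%), at -2.25 (SE 0.27, adjusted p = 0.0172, edgeR). It was at 1.41 to 2.15 CPM in the 4 libraries labelled AhR-/- and at 7.38 to 10.2 CPM in the 4 labelled CYP1B1-/-. In those labelled AhR-/-, 3 counts corresponded to 0.0742 to 1.09 CPM, the latter in replicate 3, where Acp1 was near the limit of detection. With a replicate block after HDM, Wdfy1 passed in place of Acp1. Fits without AhR-/- replicate 1, 3 or 4, CYP1B1-/- replicate 1, 3 or 4, or WT replicate 3 or 4 passed no gene. In the 10 HDM libraries under 1 CPM of Y-linked reads Acp1 was at -2.27 (SE 0.37, adjusted p = 0.438, edgeR). None of 15713 genes passed there, with 1791 at an unadjusted p under 0.05. Of the libraries labelled AhR-/-, that fit holds only replicates 1 and 2. Alkal2, transcribed from the other strand, covers 14.6% of the exon length of Acp1, and 13.3% of the distinct 50-base stretches of Acp1 are found in transcripts of further genes. The library protocol did not mark strand, so the counts of Acp1 are uncertain.

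Rell1, which encodes a membrane protein of the RELT family, was at 38.1, 52.4 and 42.8 CPM in the libraries labelled AhR-/- and at 22.8, 14.7 and 15.5 CPM in those labelled CYP1B1-/-. Its WT values, 39.9 to 45.0 CPM, lay within the range of the libraries labelled AhR-/-. The log2 fold change was 1.33 (SE 0.20, adjusted p = 0.116, edgeR), and 1.55 (SE 0.15, adjusted p = 0.000950, edgeR) without replicate 2 of the libraries labelled CYP1B1-/-. After HDM it was -0.13 (SE 0.20), with overlapping libraries. Rab4a, a GTPase of early endosomes, was named after its values were seen: it was at 13.5, 8.94 and 8.39 CPM in the libraries labelled AhR-/- and at 27.9, 16.0 and 16.7 CPM in those labelled CYP1B1-/-, with WT at 2.72 to 4.64 CPM. Both knockouts lay above WT, and the libraries labelled CYP1B1-/- above those labelled AhR-/- (log2 fold change -0.97, SE 0.28, unadjusted p = 0.00430). Wdfy1, also named afterwards, was at 15.3, 51.1 and 61.7 CPM in the libraries labelled AhR-/- and at 15.4, 14.6 and 18.5 CPM in those labelled CYP1B1-/- (log2 fold change 1.40, SE 0.38). Replicate 1 of the libraries labelled AhR-/- lay with the other genotypes, WT being at 12.5 to 16.4 CPM, while after HDM all 4 libraries labelled AhR-/-, at 15.6 to 32.7 CPM, were above the 4.41 to 9.99 CPM of those labelled CYP1B1-/-.

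The 12 genes of lowest p among those higher in the libraries labelled AhR-/- without overlap were Srbd1, Rell1, Bhlhe41, Fkbp11, Olfr433, Tmprss11a, Gabra2, Ahr, Bcl11a, Olfr982, Cytl1 and 1700025F22Rik. Fkbp11, a peptidyl-prolyl isomerase of the endoplasmic reticulum, was at 14.5, 16.1 and 14.9 CPM against 7.33, 10.2 and 10.1 CPM (log2 fold change 0.72, SE 0.19). Several of the others were near the limit of detection: Olfr433, Tmprss11a, Cytl1 and 1700025F22Rik were at no more than 3.77 CPM in any of the 6 libraries. The 12 lower genes were Acp1, Cry1, Arntl, Nfil3, Rasl11a, Cldn23, Wt1, Lonrf3, Rcn1, Cyp1b1, Aebp1 and Nid2. Cldn23, a claudin of tight junctions, was at 25.9, 25 and 28.1 CPM against 39.8, 49.6 and 50.3 CPM (log2 fold change -0.82, SE 0.17). Rasl11a, a small GTPase, was at 9.06, 7.24 and 3.77 CPM against 18.8, 17.7 and 16.3 CPM (log2 fold change -1.39, SE 0.28). In the HDM libraries, which share no library with the steady-state table, 14 of the 20 of these genes that were tested there had the same sign, 5 of 9 higher and 9 of 11 lower genes. Over all 13567 genes tested in both tables, 55.8% had the same sign. In the wider set of genes whose steady-state p was under 0.05 before adjustment, 275 of 524 (52.5%) did, with 62 of 211 higher genes (29.4%) and 213 of 313 lower genes (68.1%). In the 10 HDM libraries under 1 CPM of Y-linked reads the share was 45.6% of 594 such genes, against 53.9% of all genes tested in both.

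The 2 clock lists together held 7 genes with an unadjusted p under 0.05 among 19 tested (36.8%, background 4.23%). In the circadian clock, ARNTL and CLOCK or NPAS2 drive genes with an E-box, among them the repressors of the Per and Cry families, Bhlhe40, Bhlhe41 and the REV-ERB genes Nr1d1 and Nr1d2. REV-ERB proteins in turn repress Arntl, Npas2, Nfil3 and Cry1, so the 2 arms run in opposite phase over the day. The labels give no time of tissue collection.

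In the activator and REV-ERB-repressed arm, 6 of 7 genes were tested, and 4 had an unadjusted p under 0.05, all of them lower in the libraries labelled AhR-/- (background 2.15%). The median log2 fold change was -1.23, and -1.01 without replicate 2 of the libraries labelled CYP1B1-/-, where 3 were lower. Arntl was at 18.3, 25.4 and 17.4 CPM in the libraries labelled AhR-/- and at 35.6, 63.0 and 42.7 CPM in those labelled CYP1B1-/- (log2 fold change -1.21, SE 0.23, adjusted p = 0.602, edgeR). Cry1 was at 12.9, 13.3 and 15.0 CPM against 68.4, 40.5 and 25.5 CPM (log2 fold change -1.70, SE 0.30, adjusted p = 0.402, edgeR). For both genes every library labelled AhR-/- lay below every library labelled CYP1B1-/-, and below the WT range of 46.2 to 55.4 CPM for Arntl and 33.6 to 48.1 CPM for Cry1. Nfil3, a bZIP repressor, was at 2.50, 1.79 and 1.51 CPM against 23.1, 9.81 and 4.02 CPM (log2 fold change -2.66, SE 0.54). Its highest value came from replicate 2 of the libraries labelled CYP1B1-/-, and without that library the log2 fold change was -1.84 (SE 0.39). Npas2 was at -1.25 (SE 0.39), and at -0.75 (SE 0.36, unadjusted p = 0.0568) without replicate 2 of the libraries labelled CYP1B1-/-, while Clock was at 0.12 (SE 0.25) and Rora at 0.14 (SE 0.18).

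In the arm of repressors and outputs, 13 of 13 genes were tested, and 3 had an unadjusted p under 0.05, all higher in the libraries labelled AhR-/- (background 2.08%). The median log2 fold change was 0.56, and 0.98 without replicate 2 of the libraries labelled CYP1B1-/-, where 5 were higher (background 2.2%): Bhlhe41, Dbp, Nr1d2, Per2 and Per3. Nr1d1 was at 106, 106 and 178 CPM in the libraries labelled AhR-/- and at 39.3, 22.4 and 65.7 CPM in those labelled CYP1B1-/-, with WT at 14.4 to 49.7 CPM. The groups did not overlap, and the log2 fold change was 1.61 (SE 0.48, adjusted p = 0.936, edgeR). Bhlhe41 was at 13.2, 11 and 19.1 CPM against 5.82, 4.47 and 6.44 CPM (log2 fold change 1.37, SE 0.28, adjusted p = 0.634, edgeR). Bhlhe40 was at 18.6, 8.46 and 8.47 CPM against 6.12, 7.0 and 3.62 CPM (log2 fold change 1.08, SE 0.39), with WT at 8.07 to 17.9 CPM. Without replicate 2 of the libraries labelled CYP1B1-/-, Nr1d1 was at 1.56 (SE 0.72, unadjusted p = 0.0684) and Bhlhe40 at 1.14 (SE 0.50, unadjusted p = 0.0507), so neither kept an unadjusted p under 0.05. Bhlhe40 also rested on replicate 1 of the libraries labelled AhR-/-, its highest value, and was at 0.60 (SE 0.37) without it and at 0.70 (SE 0.26) with the replicate block. The exons of Nr1d1 and Bhlhe41 overlap antisense genes over 8.55% and 19.0% of their length. No clock gene passed the adjusted threshold of the quasi-likelihood test with all libraries. Without replicate 2 of the libraries labelled CYP1B1-/-, Arntl (log2 fold change -1.38, SE 0.18, adjusted p = 0.0116, edgeR) and Cry1 (-1.26, SE 0.20, adjusted p = 0.0460, edgeR) passed. With all libraries, Cry1, Arntl, Nfil3 and Bhlhe41 passed the likelihood ratio test of edgeR and DESeq2, and Cry1 and Arntl passed limma voom.

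After HDM, the median of the repressor and output arm was 1.56, with 7 higher and 0 lower of 13 at an unadjusted p under 0.05 (backgrounds there 13.5% and 16.4%). The median of the other arm was -0.82, with 1 higher and 3 lower of 7. Nr1d1 was at 1.93 (SE 0.71), Bhlhe41 at 1.58 (SE 0.43) and Cry1 at -1.09 (SE 0.31) on the log2 scale, the same direction as at steady state. Bhlhe40 was at -1.08 (SE 0.68), the opposite direction. In the 10 HDM libraries under 1 CPM of Y-linked reads, the repressor and output arm had a median of 1.47, with 7 higher and 0 lower of 13. The other arm had a median of -0.79 there, with 0 higher and 3 lower of 7 (backgrounds 6.22% and 5.18%). With all HDM libraries, markers of cell types and state differed too at an unadjusted p under 0.05 (backgrounds 13.5% and 16.4%). At that p, 13 of 13 alveolar type 1 markers were higher in those labelled AhR-/- (median 2.12). Lower were 8 of 10 pan-hematopoietic markers (median -2.05) and 24 of 25 genes of DNA replication and mitosis (median -2.07). In the 10 HDM libraries under 1 CPM of Y-linked reads, the counts at that p were 1 of 13 higher, 1 of 10 lower and 12 of 25 lower (backgrounds 6.22% and 5.18%). The medians there were 1.47, -1.32 and -1.51, in the same directions. The part of these marker differences in the clock values was not tested.

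**Figure D2:**
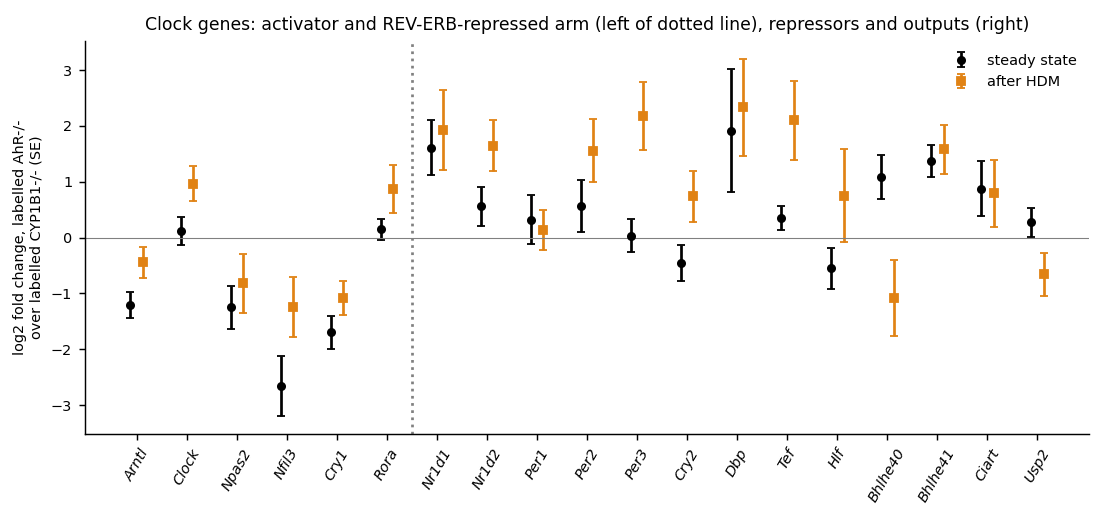
Log2 fold change of 19 clock genes between libraries labelled AhR-/- and CYP1B1-/- (y axis, points with SE bars) at steady state (black) and after HDM (orange), by gene (x axis). Arntl, Npas2, Nfil3 and Cry1 lie below 0 and Nr1d1 and Bhlhe41 above 0 in both tables, while Bhlhe40 changes side.

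The proximal promoters of 4 of these genes are shown because they come from both arms and lay on opposite sides of 0. They run from 250 bases before to 50 after the start site, are from RefSeq (GRCm38.p6), and were searched on both strands for the E-box CACGTG, the AhR core GCGTG and the nuclear receptor half-site AGGTCA, the last added after the values were seen. Capitals mark matches.
Nr1d1 (chr11:98775328-98775627, minus strand): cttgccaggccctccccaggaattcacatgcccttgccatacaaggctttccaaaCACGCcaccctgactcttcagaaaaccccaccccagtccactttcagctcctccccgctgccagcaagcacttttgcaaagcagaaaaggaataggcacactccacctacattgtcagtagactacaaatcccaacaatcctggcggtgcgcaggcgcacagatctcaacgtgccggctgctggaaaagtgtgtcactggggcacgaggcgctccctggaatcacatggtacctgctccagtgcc
Bhlhe41 (chr6:145865371-145865670, minus strand): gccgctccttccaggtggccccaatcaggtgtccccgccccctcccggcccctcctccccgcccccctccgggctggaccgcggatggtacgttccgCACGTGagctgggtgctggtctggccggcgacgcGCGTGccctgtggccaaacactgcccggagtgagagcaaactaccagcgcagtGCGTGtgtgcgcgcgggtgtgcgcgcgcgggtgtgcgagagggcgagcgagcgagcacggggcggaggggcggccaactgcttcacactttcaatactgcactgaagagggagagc
Arntl (chr7:113207261-113207560, plus strand): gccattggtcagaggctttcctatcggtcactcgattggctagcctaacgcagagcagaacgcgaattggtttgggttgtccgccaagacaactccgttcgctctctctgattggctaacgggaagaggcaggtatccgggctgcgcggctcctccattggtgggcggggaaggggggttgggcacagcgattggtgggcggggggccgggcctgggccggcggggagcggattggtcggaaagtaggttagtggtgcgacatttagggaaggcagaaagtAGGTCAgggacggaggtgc
Cry1 (chr10:85185005-85185304, minus strand): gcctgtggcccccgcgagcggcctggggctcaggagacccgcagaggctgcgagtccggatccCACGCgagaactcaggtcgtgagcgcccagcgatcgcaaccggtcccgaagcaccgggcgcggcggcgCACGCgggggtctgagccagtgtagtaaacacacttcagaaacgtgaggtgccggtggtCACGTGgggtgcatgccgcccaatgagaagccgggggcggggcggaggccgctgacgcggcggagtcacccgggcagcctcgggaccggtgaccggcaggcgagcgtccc
An E-box occurred in 7.15% of all 32851 promoters, the AhR core in 32.4% and the half-site in 16.3%. Bhlhe41, higher in the libraries labelled AhR-/-, and Cry1, lower, each held 1 E-box and 2 AhR cores, so genes of opposite direction shared these letters. Nr1d1 held 1 AhR core and no E-box in this window, and this start site of Arntl held 1 half-site. A match is a description of letters and not a binding site.

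Genes around the targeted loci were read separately. Within 10 Mb of Cyp1b1, 90 of 113 genes were tested, and 9 had an unadjusted p under 0.05 (10.0%, against 4.23% over all genes), 3 higher and 6 lower in the libraries labelled AhR-/-. Within 5 Mb of Cyp1b1 the share was 14.6%, 6 of 41 genes, which became 3 of 42 when replicate 2 of the libraries labelled CYP1B1-/- was left out, and within 20 Mb it was 7.69%. The 9 included Srbd1, at 6.27 Mb, and Epcam, at 7.92 Mb. Epcam, the sorting marker, was at 164, 136 and 146 CPM in the libraries labelled AhR-/- and at 406, 178 and 204 CPM in those labelled CYP1B1-/- (log2 fold change -0.82, SE 0.28, unadjusted p = 0.0135). Without replicate 2 of the libraries labelled CYP1B1-/-, which held the 406 CPM, the log2 fold change of Epcam was -0.36 (SE 0.16, unadjusted p = 0.0408). Heatr5b, Gpatch11 and Prkd3, all within 1 Mb of Cyp1b1, were at -0.51 (SE 0.15), -0.59 (SE 0.21) and 0.44 (SE 0.16), Prkd3 being at 0.26 (SE 0.18) without AhR-/- replicate 4. Vit, Thumpd2 and Lrpprc, at 1.07, 1.31 and 4.99 Mb, were at -0.93 (SE 0.38), -0.76 (SE 0.32) and -0.57 (SE 0.21), and without replicate 2 of the libraries labelled CYP1B1-/- at -0.66, -0.34 and -0.33, with unadjusted p-values of 0.134, 0.251 and 0.0510 (edgeR). Within 10 Mb of Ahr, 61 of 71 genes were tested and 3 had an unadjusted p under 0.05, all lower: Acp1, at 4.59 Mb, Pxdn, a peroxidase of the extracellular matrix (-0.88, SE 0.31), and Cmpk2, a mitochondrial nucleotide kinase (-0.71, SE 0.21). When replicate 2 of the libraries labelled CYP1B1-/- was left out, Pxdn was at -0.42 (SE 0.21, unadjusted p = 0.0695). With all libraries, the share of genes near Ahr was 4.92% (background 4.23%), but 2.33% within 5 Mb and 8.40% within 20 Mb. The genotype at these neighbouring genes was not tested.

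**Figure D3:**
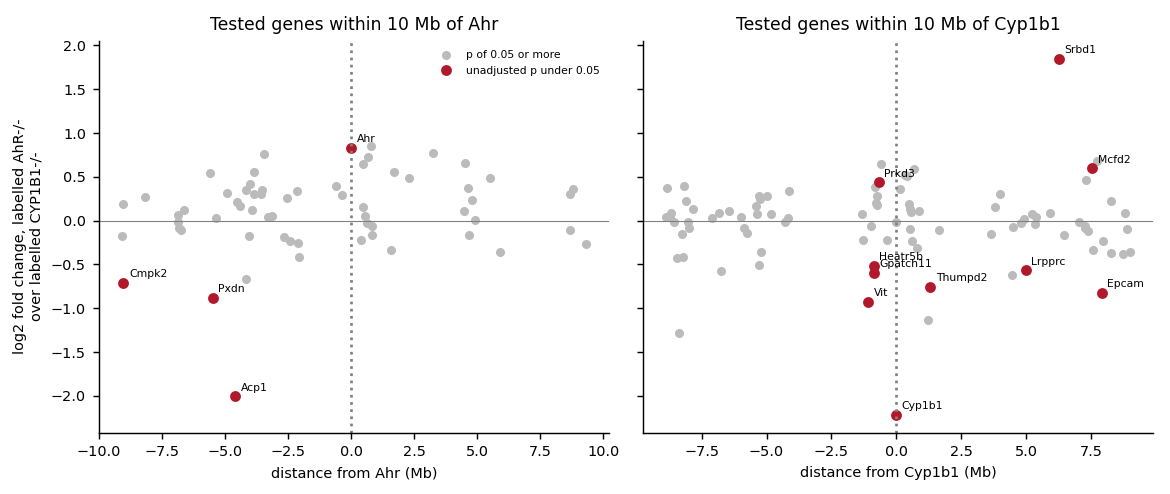
Log2 fold change between libraries labelled AhR-/- and CYP1B1-/- at steady state (y axis) against distance from the targeted gene in Mb (x axis) for tested genes within 10 Mb of Ahr (left) and Cyp1b1 (right), the targeted genes at 0. Named red points have an unadjusted p under 0.05, with Acp1 at -2.0 and Srbd1 at 1.85 the farthest from 0 beside Cyp1b1.

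The 4 mesothelial markers had log2 fold changes below 0 in the libraries labelled AhR-/- at steady state. All 4 were tested, with a median log2 fold change of -2.01, and 3 had an unadjusted p under 0.05, all lower (background 2.15%). Without replicate 2 of the libraries labelled CYP1B1-/-, all 4 were lower at that level (background 1.57%), with a median of -2.11. Wt1, the transcription factor that marks mesothelium, was at 0.863, 0.894 and 1.09 CPM in the libraries labelled AhR-/- and at 3.51, 5.00 and 2.66 CPM in those labelled CYP1B1-/- (log2 fold change -1.96, SE 0.41, adjusted p = 0.634, edgeR). Its adjusted p was 0.0287 with the likelihood ratio test of edgeR, 0.0196 with DESeq2 and 0.133 with limma voom. Lrrn4 was at 1.21, 9.92 and 4.19 CPM against 16.3, 27.3 and 20.1 CPM (log2 fold change -2.05, SE 0.56). Upk3b was at 1.12, 8.70 and 3.10 CPM against 6.02, 38.7 and 20.9 CPM, with overlapping libraries (log2 fold change -2.34, SE 0.75). The 4 markers summed to 10.4 to 37.6 CPM in the libraries labelled AhR-/- and to 31.7 to 110 CPM in those labelled CYP1B1-/-, with WT at 27.6 to 75.4 CPM. The sums of the 2 knockout groups thus overlapped. None of the 4 was at 0 in all 6 libraries. After HDM, 3 of the 4 were tested, with a median of -0.60. There, 0 were higher and 0 lower at an unadjusted p under 0.05 (backgrounds 13.5% and 16.4%).

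Of the 12 mesenchymal markers, all tested, 2 had an unadjusted p under 0.05, both lower in the libraries labelled AhR-/- (16.7%, against 4.23% over all genes), the median was -0.21, and 4 were above 0. The list summed to 54.3, 285 and 84.6 CPM in the libraries labelled AhR-/- and to 159, 343 and 234 CPM in those labelled CYP1B1-/-, which overlap. Those 2 genes, Col1a1 and Col3a1, encode fibrillar collagens and were at -1.41 (SE 0.47) and -1.30 (SE 0.48), and without replicate 2 of the libraries labelled CYP1B1-/- at -1.44 (SE 0.64, unadjusted p = 0.0624) and -1.49 (SE 0.64, unadjusted p = 0.0555), which left 0 of the 12 with an unadjusted p under 0.05. Replicate 3 of the libraries labelled AhR-/-, which held the 285 CPM, moved them the other way, to -2.33 (SE 0.37) and -2.40 (SE 0.29) when it was left out. Of 17 retinoid genes, the retinal dehydrogenase Aldh1a2 alone had an unadjusted p under 0.05 (5.88%), at -1.40 (SE 0.36). Of 18 antimicrobial and complement genes, 9 were above 0 and 9 below, with a median of 0.11, and 2 had an unadjusted p under 0.05 (11.1%). These were the complement genes C3 and C4b, at -1.73 (SE 0.44) and -1.43 (SE 0.54), C4b losing its unadjusted p under 0.05 without replicate 2 of the libraries labelled CYP1B1-/- (-1.55, SE 0.73, unadjusted p = 0.0752). C4b was at -0.94 (SE 0.39) without AhR-/- replicate 1 and at -2.44 (SE 0.48) without AhR-/- replicate 3. Of the distinct 50-base stretches of C4b, 34.6% are found in transcripts of further genes, so its counts are uncertain. The basement membrane gene Nid2 was at 1.55, 2.20 and 0.755 CPM against 4.12, 7.34 and 4.10 CPM, and Aebp1, a regulator of collagen assembly, at 3.28, 10.4 and 4.78 CPM against 19.8, 25.3 and 16.8 CPM. The endothelial receptor gene Kdr was at -1.16 (SE 0.41), the 1 of 11 tested endothelial markers with an unadjusted p under 0.05, and the median of that list was -0.32, or 0.29 without replicate 2 of the libraries labelled CYP1B1-/-. The share of non-epithelial cells in each sort was not tested, and in bulk samples fewer cells of a type and less RNA per cell cannot be told apart.

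Of 13 alveolar type 1 markers, 1 had an unadjusted p under 0.05 (7.69%, against 4.23% over all genes): Hopx, at -0.77 (SE 0.29), with 105, 90.9 and 95.8 CPM against 252, 101 and 144 CPM, the highest value again from replicate 2. Without that library Hopx was at -0.34 (SE 0.19, unadjusted p = 0.0879). Ager, the most abundant, was at means of 20162 and 16973 CPM (log2 fold change 0.25, SE 0.27). None of 14 alveolar type 2, 11 club and secretory or 15 multiciliated markers reached an unadjusted p under 0.05. Of 6 goblet markers, 1 did (16.7%): Clca1, a secreted product of goblet cells, at 1.55 (SE 0.66), and at 2.15 (SE 0.71, unadjusted p = 0.00923) without replicate 2 of the libraries labelled CYP1B1-/-, from means of 3.04 and 1.06 CPM. This value rested on replicate 1 of the libraries labelled AhR-/-, at 6.39 CPM against 1.22 and 1.51 CPM in the other 2, and without it Clca1 was at 0.42 (SE 0.56). Sftpc, the surfactant gene, was at 0.67 (SE 0.66) and Scgb1a1, the club cell secretoglobin, at 0.10 (SE 0.67). The 33 tight and adherens junction genes had a median of -0.01 and none with an unadjusted p under 0.05, Cldn23 not being on that list. When replicate 2 of the libraries labelled CYP1B1-/- was left out, 3 of the 33 junction genes were lower at an unadjusted p under 0.05 (background 1.57%): Cldn10 and Cldn1, both at -1.14 (SE 0.32 and 0.43), and Cgnl1 at -0.38 (SE 0.14). So were 2 of the 15 multiciliated markers, Sntn at -0.80 (SE 0.32) and Tppp3 at -0.40 (SE 0.18), and the multiciliated median moved from -0.15 to -0.48. The club and secretory median moved from -0.01 to -0.46. A p that misses the threshold does not show that these values did not differ.

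Immune and stress lists were read in the same way. None of 22 type I interferon genes, 13 interferon-inducible GTPases, 16 genes of MHC class I and the immunoproteasome, 10 of MHC class II, 20 immediate early genes or 11 heat shock genes had an unadjusted p under 0.05. With replicate 2 of the libraries labelled CYP1B1-/- left out, 4 of these lists held 1 such gene each: Oasl2 (-0.42, SE 0.14), the guanylate-binding protein gene Gbp2 (-1.53, SE 0.60) and the immunoproteasome subunit gene Psmb10 (-0.55, SE 0.19) were lower, and the heat shock gene Dnajb1 (0.42, SE 0.17) was higher. Of 23 Toll-like receptor and NF-kappaB genes, Tnfaip3 (-0.79, SE 0.34) and Relb (-0.73, SE 0.33) did (8.70%, against 4.23% over all genes), and replicate 2 of the libraries labelled CYP1B1-/- held the highest value of both. Without it they were at -0.37 (SE 0.30, unadjusted p = 0.249) and -0.13 (SE 0.18, unadjusted p = 0.477), and 0 of the 23 genes had an unadjusted p under 0.05. Of 18 NRF2 genes, Osgin1 (0.45, SE 0.20) and Hmox1 (0.53, SE 0.23) were higher and Keap1 (-0.55, SE 0.23) lower (16.7%, against 4.23%). Without the same library Keap1 was at -0.20 (SE 0.13, unadjusted p = 0.163) and Osgin1 at 0.34 (SE 0.18, unadjusted p = 0.0740), which left Hmox1. Hmox1 was at 0.35 (SE 0.26) without AhR-/- replicate 3. Of 10 pan-hematopoietic and 14 myeloid markers none had an unadjusted p under 0.05. The pan-hematopoietic median moved from -0.47 to 0.61 without replicate 2 of the libraries labelled CYP1B1-/-, and the myeloid median from -0.21 to 1.04. In that fit the myeloid gene Marco was higher (3.17, SE 1.29, unadjusted p = 0.0294, edgeR), 1 of 14 (background 2.2%).

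Several further lists held 1 to 3 genes with an unadjusted p under 0.05 with all libraries. Of 23 genes of DNA replication and mitosis, 3 did (13.0%): Mcm6, a subunit of the replicative helicase, at -0.65 (SE 0.22), Ccna2, which encodes cyclin A2, at -0.86 (SE 0.38), and Tyms, thymidylate synthase, at 0.67 (SE 0.28), so the 3 did not share a direction. Of 29 sterol and fatty acid synthesis genes, Insig1, a brake on SREBP processing, was at -0.62 (SE 0.24) and the desaturase gene Fads2 at -0.83 (SE 0.32), a share of 6.90%. Of 29 TGF-beta and BMP genes, the receptor genes Acvr2a and Tgfbr3 were at -0.76 (SE 0.33) and -0.79 (SE 0.34), also 6.90%. One gene each had an unadjusted p under 0.05 in 4 more lists. These were Cxcl1, a neutrophil chemokine, at 1.01 (SE 0.44, 1 of 12, 8.33%), the metallothionein gene Mt1 of the glucocorticoid list at 0.82 (SE 0.32, 1 of 15, 6.67%), Atp1b1, a subunit of the sodium pump, at -0.71 (SE 0.27, 1 of 18, 5.56%), and Dnajc3, a co-chaperone of the unfolded protein response, at -0.62 (SE 0.28, 1 of 19, 5.26%). When replicate 2 of the libraries labelled CYP1B1-/- was left out, Mcm6 (-0.41, SE 0.18) and Fads2 (-0.76, SE 0.34) kept an unadjusted p under 0.05, and the other genes of this paragraph did not. Of those, Tyms, Cxcl1 and Mt1 were at 0.60 (SE 0.31), 0.85 (SE 0.49) and 0.61 (SE 0.30), less than 1.5 times below their values with all libraries. Ccna2 was at -0.45 (SE 0.39), Tgfbr3 at -0.43 (SE 0.30), Atp1b1 at -0.35 (SE 0.19), Insig1 at -0.27 (SE 0.15), and Acvr2a and Dnajc3 at -0.16 (SE 0.18) and -0.16 (SE 0.16). Il18, of the cytokine list, had an unadjusted p under 0.05 in that fit and not with all libraries (-1.13, SE 0.48). Leaving out AhR-/- replicate 1 moved Mt1 to 0.48 (SE 0.33) and Tgfbr3 to -0.51 (SE 0.32). No gene in these lists passed the adjusted threshold.

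**Figure D4:**
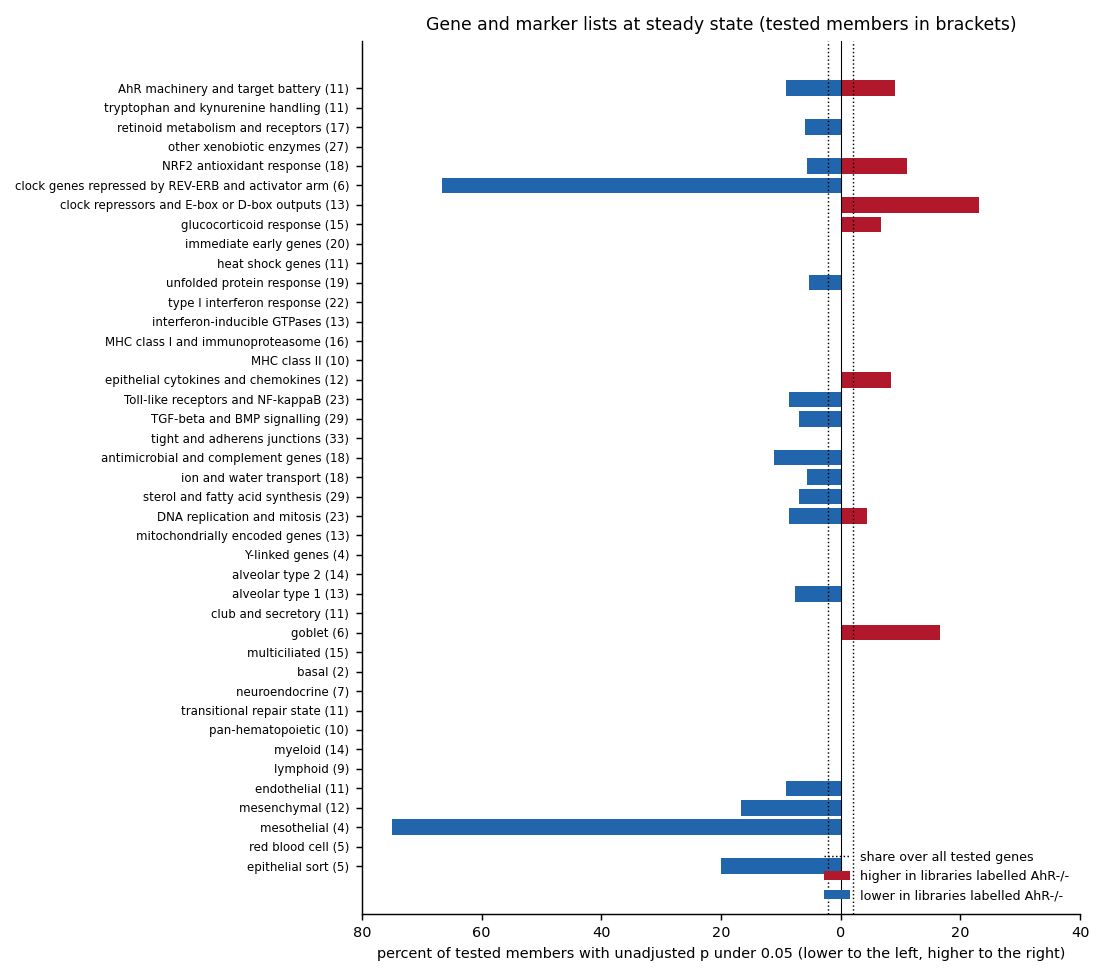
Percent of tested members with an unadjusted p under 0.05 (x axis) for gene and marker lists (y axis, tested members in brackets), higher in libraries labelled AhR-/- to the right and lower to the left, with dotted lines at the 2.08% and 2.15% over all genes. The clock and mesothelial lists extend farthest.

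Olfactory and vomeronasal receptor genes, which encode the chemoreceptors of the nose, made up many of the genes higher in the libraries labelled AhR-/- at an unadjusted p under 0.05. This group was formed after the values were seen. Of 1466 such genes, 725 passed the filter on low counts, and 93 had an unadjusted p under 0.05, all higher (background 2.08%), which is 28.8% of the 323 higher genes. When replicate 2 of the libraries labelled CYP1B1-/- was left out, the count was 60 of 773, all higher (background 2.2%). The filter can pass a low gene through the group where it is high, so this count describes these genes and does not support a difference. Summed over the 1466 genes, they held 2218, 2278 and 1794 CPM in the libraries labelled AhR-/- and 1541, 1195 and 1572 CPM in those labelled CYP1B1-/-. WT ranged from 849 to 2711 CPM, a range that covers both groups. After HDM, 295 were tested, 1 was higher and 1 lower, and the median was -0.64. Without these genes, 230 genes were higher and 334 lower at an unadjusted p under 0.05.

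**Figure D5:**
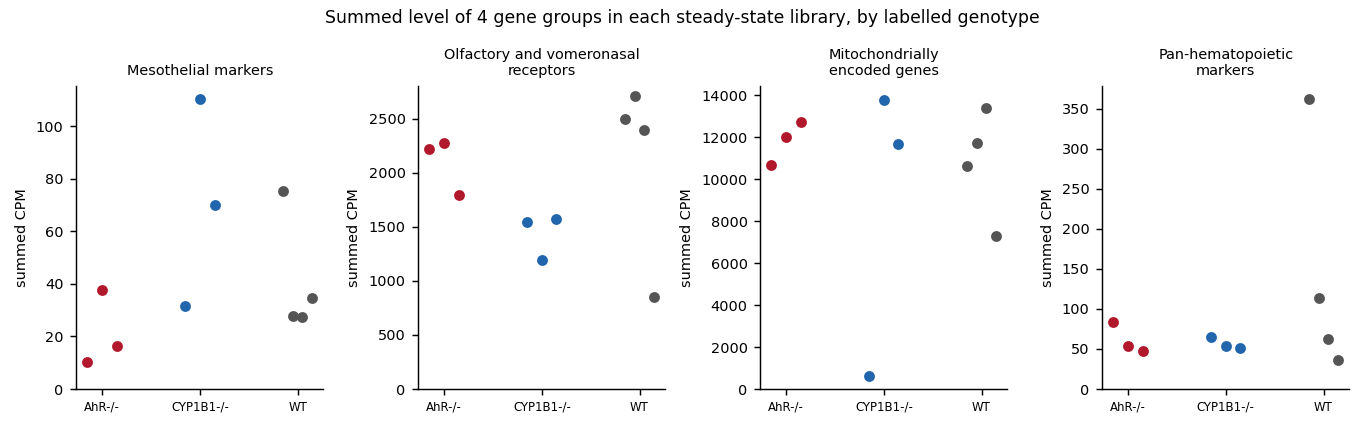
Summed CPM (y axes, linear from 0) of mesothelial markers, olfactory and vomeronasal receptors, mitochondrially encoded genes and pan-hematopoietic markers in each steady-state library (points) by labelled genotype (x axis). The mitochondrial sum of 1 library labelled CYP1B1-/- is 613 CPM against 11665 and 13785 CPM in the other 2, and the receptor sums of the libraries labelled AhR-/- and CYP1B1-/- do not overlap.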

How the data were processed

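RNA of sorted ECs was reverse transcribed from oligo-dT with template switching, amplified and tagmented, a protocol without strand marking or molecular identifiers. Per the labels and the methods, the authors used bbduk for trimming, GSNAP for mapping to mm10 and featureCounts 2.0.0 for counting on genes. The deposited values are raw counts per gene, without normalization. How reads with several positions were counted is not given in the sources used here.

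Genes were matched by identifier to GENCODE M21 (54147 of 54373), of which 21793 protein-coding ones entered the analysis. Tests used edgeR 4.0.16 in R 4.3.3: filterByExpr (minimum count 10, minimum total 15), TMM, and robust glmQLFit and glmQLFTest over all 10 steady-state libraries, with the contrast of the 2 knockouts and a Benjamini-Hochberg adjusted p of 0.05. The 12 HDM libraries were fitted alike. Fold changes are libraries labelled AhR-/- over libraries labelled CYP1B1-/-. SD is over libraries. No 2 replicates of a group agreed within sampling noise (chi-square per degree of freedom 13.2 to 209). The depth, 11185853 to 15654352 counts per library, sets the precision, and the limit of 3 counts covers counting error only. DESeq2 1.42.0 and limma 3.58.1 were alternatives, with other filters and normalizations, a replicate block, a hematopoietic covariate and each library left out. The scripts were tested on simulated data.

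Named were all genes past the threshold, the 12 of lowest p in each direction without overlap, up to 10 that passed only with another tool, the targeted and sorting genes, up to 8 genes near each target and up to 4 per list with an unadjusted p under 0.05. In lists without one, the rule took the 2 of highest mean CPM, of which only some are given. Rab4a, Wdfy1, Glipr2, Mcfd2 (in a plot), list members with a low p only without CYP1B1-/- replicate 2 and the chemoreceptors were added after their values were seen. Members and lists were chosen with earlier results of these data known. One gene of a list is not reported here, and the list's counts leave it out.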

Additional observations from a re-analysis of the deposited data

Results flagged for a closer look

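Among the 52 groups of 4 libraries read for 1 value far from the others, 3 stood out, and chance gives about 1 group in 20. WT steady-state replicate 4 held 17707000 counts against 10476829 to 11273312 in the other WT libraries, and its olfactory and vomeronasal receptor genes summed to 849 CPM against 2398 to 2711 CPM. WT steady-state replicate 1 had a mesothelial marker sum of 75.4 CPM against 27.6 to 34.7 CPM. Olfr433 separated the knockouts in opposite directions, at a log2 fold change of 1.96 at steady state and -1.66 after HDM; the difference between these was not tested. Outside the protein-coding genes, the lincRNA AC122818.3 (chromosome 17, 87464640 to 87473742), 7.75 Mb from Cyp1b1, had a log2 fold change of 5.60 (SE 0.65, adjusted p = 0.0128, edgeR, all gene classes). It was at 3.88, 3.17 and 2.52 CPM in the libraries labelled AhR-/-, at 3.18 to 4.63 CPM in WT and at 0, 0 and 0.161 CPM in those labelled CYP1B1-/-. The fitted fold change rests on a prior count and is no bound, and the counts in the last group are at the limit of detection.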

How the results depend on the processing

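The steady-state count of 1 gene became 9 under the likelihood ratio test, 14 under DESeq2, 9 under limma voom, 3 with all gene classes, and 0 with the replicate block (309 genes at an unadjusted p under 0.05) or with only the knockout libraries in the fit (657). With each of the 10 libraries left out it ran from 0 to 7. It was 7 without CYP1B1-/- replicate 2 and 0 without AhR-/- replicate 3 or 4, CYP1B1-/- replicate 3 or 4, or WT replicate 2, 3 or 4. These fits gave between 373 and 1301 genes with an unadjusted p under 0.05. Without AhR-/- replicate 1 the gene that passed was Wdfy1, not Srbd1. Same-numbered libraries of the knockouts correlated at -0.02 (replicate 3) and 0.24 (replicate 4) in their deviations. Differently numbered libraries were not compared, so these values cannot show whether the numbers pair libraries. The naming rule or later choice took 64 genes with an unadjusted p under 0.05. All 64 kept their sign in each of the 23 steady-state alternatives that tested them (1462 values). The alternatives refit the counts from which these genes were chosen, so a kept sign is no further evidence for a difference. The share over all genes tested is not given here. Srbd1 ran from 1.74 to 1.99 on the log2 scale. After HDM, the count of 1 became 0 in the 10 libraries under 1 CPM of Y-linked reads (1791 at an unadjusted p under 0.05). Of the libraries labelled AhR-/-, that fit holds only replicates 1 and 2. The count was 2458 under the likelihood ratio test, 2906 under DESeq2 and 5313 under voom. It was 0 with the hematopoietic covariate (1283 at an unadjusted p under 0.05) and 0 with only the knockouts in the fit (3539). With the replicate block it was 1, Wdfy1 in place of Acp1 (3849). With a library left out it ran from 0 to 3098, reaching 2683 without AhR-/- replicate 2 and 3098 without CYP1B1-/- replicate 2. The cause of these shifts was not tested.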
